A study of Mus musculus with 6 samples.

Results

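The replication-dependent histone genes are the genes that supply histones to newly made DNA. They were taken as every gene of the mm9 (NCBIM37) GENCODE annotation whose name starts with Hist1h, Hist2h, Hist3h or Hist4h. This gave 70 of the 37273 annotated genes, of which 67 are annotated as protein-coding and 3 as pseudogenes (Hist1h2aj, Hist2h3c2 and Hist3h2bb-ps). By class there were 6 genes for the linker histone H1, 20 for H2A, 19 for H2B, 12 for H3 and 13 for H4. The Hist1 cluster on chromosome 13 held 56 members, the Hist2 cluster on chromosome 3 held 10, the Hist3 cluster on chromosome 11 held 3, and Hist4h4 lay alone on chromosome 6.

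Chromatin of the mouse hippocampus (strain C57/BL6, age 6 months) was sequenced for fear-conditioned mice (FC) and for context-only mice (CON). FC mice received a foot shock in the conditioning context on the first day and again on the second day. CON mice were handled alike without the shock. Tissue was taken within an hour of a memory test on the third day. For each group there was 1 library of chromatin precipitated with an antibody to H4 acetylated at lysine 5 (H4K5ac), 1 precipitated with IgG, and 1 of input DNA that was not precipitated. The methods name several hippocampal samples per group, each cross-linked and precipitated separately, and barcoded libraries that were pooled for sequencing. They do not say how the samples relate to the 1 library of each kind given here. Whole hippocampus mixes neurons with glia, vessel cells and dividing progenitors. No group has a replicate, so no test across samples was possible, and every interval given is an exact 95% interval for counting error only.

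Most histone genes are expressed while a cell copies its DNA. Their mRNAs are not polyadenylated and end in a stem-loop that the stem-loop binding protein holds, and their transcription depends on NPAT. Mature neurons no longer divide and draw mainly on replication-independent variants such as H3.3. H4K5ac is a mark of newly made histone H4 and is also found at active promoters, so that the H4 genes encode the very residue that the antibody recognises.

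All 13 H4 genes code for that lysine at the same place, the sixth codon counting the start codon. The first 30 coding bases of some of them, read from mm9, are shown with this codon in capitals to make clear how alike the genes are.
Hist1h4i, Hist1h4m and Hist1h4n: atgtctggtcgtggcAAAggaggaaaaggc
Hist1h4j and Hist1h4k: atgtctggcagaggtAAGggcgggaaaggg
Hist1h4d: atgtctggacgcgggAAAggcggcaagggt
Hist2h4: atgtctggcagaggaAAGggtggaaagggt
Hist4h4: atgtcaggacgaggaAAAggcggcaagggt
The codon is AAG in 8 members and AAA in 5. Over their whole coding length of 312 bases, the 78 pairs of H4 genes were 85.3% to 100% identical, with a median of 93.9%. In mm9 these stretches lie on chromosome 13 at chr13:22133163-22133192 (minus strand) for Hist1h4i and chr13:21826965-21826994 (plus strand) for Hist1h4j, on chromosome 3 at chr3:96067198-96067227 (minus strand) for Hist2h4 and on chromosome 6 at chr6:136752871-136752900 (minus strand) for Hist4h4.

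The stem-loop that defines these mRNAs was found in the 200 bases after the stop codon of 59 of the 66 members with an annotated stop codon. It was searched on the coding strand as 16 letters: GG, any 3 bases, TTTT, any base, A, any 3 bases and CC. A stricter form, included in this one, has the arms GGCTCT and AGAGCC. Of 21360 other protein-coding genes 20 (0.0936%) held the looser form and 1 (0.00468%) the stricter one. The 7 members without a match were Hist1h2an, Hist1h2bq, Hist1h2br, Hist1h3g, Hist1h4a, Hist2h2bb and Hist2h2be. For each gene only 1 transcript was searched, the first by identifier with whole start and stop codons. Stop codons of other transcripts were not searched. The stricter form was present in 47 members and in no H4 gene, and 12 of 13 H4 genes held only the looser one. The stem and loop are in capitals, with the bases on either side in lower case.
Hist1h1c: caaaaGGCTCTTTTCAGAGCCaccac
Hist2h2ab: aaaaaGGCTCTTTTAAGAGCCaccaa
Hist1h4k: caaaaGGCCCTTTTCAGGGCCaccca
Hist1h4j: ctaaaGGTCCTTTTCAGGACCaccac
Hist2h4: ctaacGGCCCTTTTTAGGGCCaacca
The core of Hist1h1c was found in 37 members, itself included, none of them an H4 gene, and that of Hist1h4k in 8 members, all H4 genes. The 16-base core lies at chr13:23831381-23831396 in Hist1h1c, chr13:21842019-21842034 in Hist1h4k and chr3:96066862-96066877 in Hist2h4.

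The repetition of these genes limited what could be read from them. A 50-base stretch was called unique where it occurs once in mm9 on either strand. The median member had 57.8% unique starts in its gene body and 87.9% in its promoter, taken as the 2 kb upstream of the TSS. The measure counts exact copies only. Aligned reads spanned 25 to 50 bp and the alignment allowed colour mismatches, so reads on unique starts may still come from near copies. Promoters and bodies without unique sequence held almost no reads. In 6 neighbouring members on chromosome 13 (Hist1h2bq, Hist1h2ao, Hist1h4m, Hist1h4n, Hist1h2ap and Hist1h2br) under 3% of the promoter was unique. These 6 promoters held 0 reads in each H4K5ac library, 8 in FC input, 1 in CON input and 1 in CON IgG. Nothing can be said of their acetylation. The other 64 promoters held at least 10 reads in each pair of H4K5ac and input libraries. In gene bodies, 45 members reached 10 reads in FC H4K5ac and input together and 30 did in CON. Hist2h2aa1 and Hist2h2aa2 held 0 reads in their bodies in all 6 libraries, with 0% and 4.84% unique starts.

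**Figure D1:**
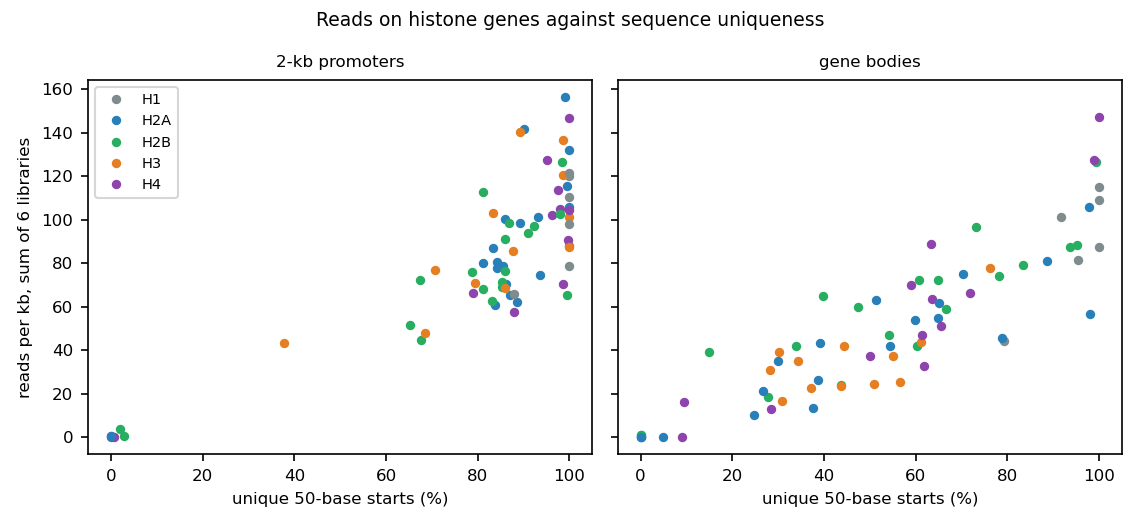
Reads per kb, summed over the 6 libraries, against the percentage of unique 50-base starts, for promoters (left) and gene bodies (right) of the 70 histone genes, coloured by class. Read density is lower where fewer starts are unique, and the 6 promoters under 3% unique sit at the bottom left.

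Libraries held 31605738 (FC) and 35962226 (CON) H4K5ac reads, 45673239 and 35493806 input reads and 14549689 and 16491741 IgG reads. H4K5ac was compared with input as the log2 ratio of reads per library total. For reference, the promoters of 10 hippocampal neuron genes had median log2 ratios of 0.66 (FC) and 0.70 (CON). Those of 12 genes of other tissues had -0.27 and -0.40. These values do not identify the tissue. The medians of protein-coding promoters were 0.40 and 0.65, and those of 18 genes of S phase and cell division 0.66 and 1.00.

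H4K5ac was more frequent than input over the histone promoters in both groups. With overlapping windows merged, the 70 promoters covered 114194 bp. They held 2315 H4K5ac, 532 IgG and 1875 input reads in FC, and 2771, 659 and 1494 in CON. Pooled, H4K5ac over input gave a log2 ratio of 0.84 (0.75 to 0.92) for FC and of 0.87 (0.78 to 0.96) for CON. Over IgG it was 1.00 (0.87 to 1.14) and 0.95 (0.82 to 1.07).

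Gene by gene, 45 of 64 measured promoters (70.3%) were at least 1.5-fold above input in FC, against 34.1% of all 35265 annotated genes with 10 reads and 41.8% of protein-coding genes. In CON 44 of 64 (68.8%) were, against 43.2% of all genes and 52.5% of protein-coding genes. At least 1.5-fold below input were 2 members in each group, Hist1h2aa with Hist1h2bk in FC and Hist1h2aa with Hist1h2ba in CON, against 25.4% and 24.9% of all genes. In both groups 34 members were above this fold, against 28.1% of all genes. The members' median log2 ratio was 0.91 in FC and 0.90 in CON, and the medians of protein-coding promoters were 0.40 and 0.65. With IgG as the control the members' medians, 0.96 and 0.86, were near those of protein-coding promoters, 0.97 and 0.80. In both groups 47 of 64 members were at least 1.5-fold above IgG, against 53% (FC) and 48.9% (CON) of all genes. After subtracting the median of protein-coding promoters of like GC content, the pooled log2 ratio over input was 0.51 in FC and 0.49 in CON. The members' median after this step was 0.61 in FC and 0.30 in CON.

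**Figure D2:**
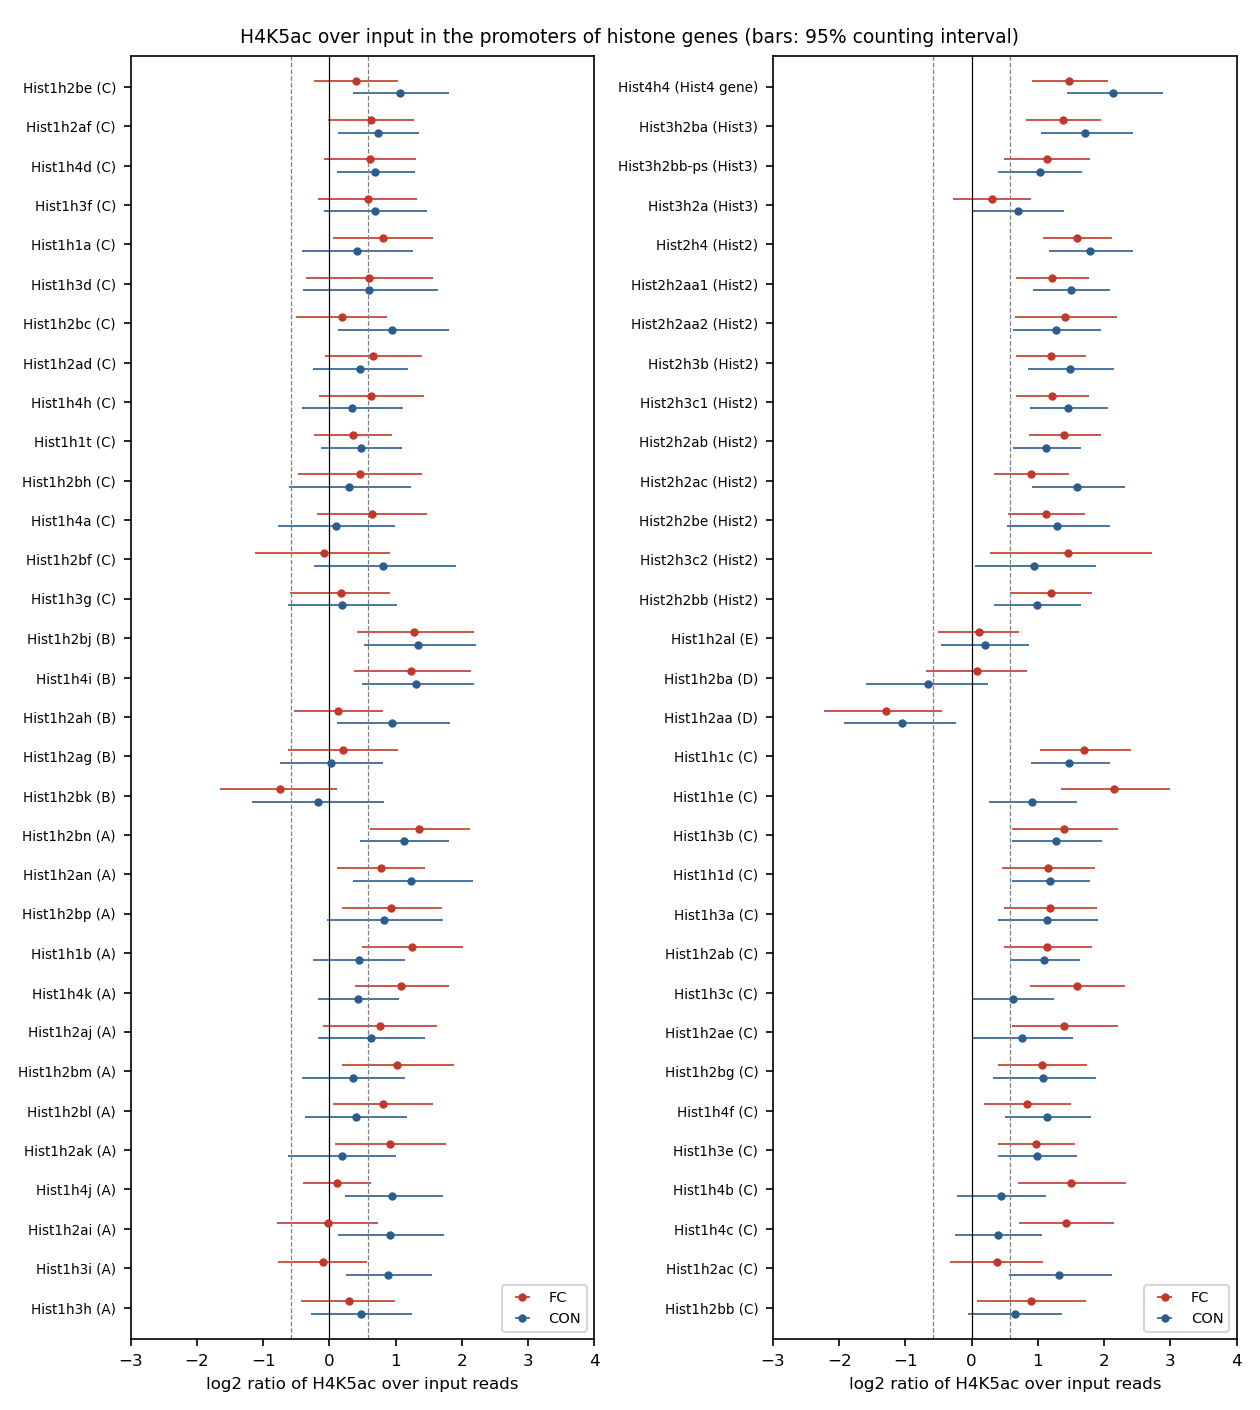
Log2 ratio of H4K5ac over input reads in the 64 measured histone promoters, FC in red and CON in blue, with 95% counting intervals and the genes' cluster or block in brackets. Dashed lines mark 1.5-fold, and the 10 Hist2 genes and Hist4h4 lie above it in both groups, while Hist1h2aa lies below it.

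The genes outside chromosome 13 stood highest. Pooled over the 14 promoters of Hist2, Hist3 and Hist4, the log2 ratio was 1.19 (1.02 to 1.36) for FC and 1.38 (1.19 to 1.57) for CON. The promoters on chromosome 13 had 0.70 (0.59 to 0.80) in both groups, so that the intervals did not overlap in either group. All 10 Hist2 members were at least 1.5-fold above input in both groups, and their intervals excluded 0. Over IgG the contrast had the same direction, with 1.66 against 0.78 in FC and 1.40 against 0.79 in CON. The 2 control libraries differed from each other there in FC: the log2 ratio of IgG over input outside chromosome 13 was -0.47 (-0.79 to -0.16) for FC and -0.02 (-0.31 to 0.27) for CON.

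Hist4h4, an H4 gene on its own at chr6:136752589-136752900, had the highest mean ratio of its class. Its promoter held 77 H4K5ac, 12 IgG and 40 input reads in FC and 93, 12 and 21 in CON. The log2 ratio over input was 1.48 (0.91 to 2.06) for FC and 2.13 (1.43 to 2.89) for CON. Hist2h4, the only H4 gene of the Hist2 cluster (chr3:96065627-96067234), held 100 H4K5ac, 8 IgG and 48 input reads in FC and 101, 8 and 29 in CON. Its promoter had the highest mean H4K5ac density of all members, 1.55 RPKM in FC and 1.37 in CON. RPKM was taken per kb of window length extended by the mean read span. The log2 ratios of Hist2h4 over input were 1.59 (1.08 to 2.12) and 1.78 (1.17 to 2.43). In both genes the H4K5ac library exceeded input and IgG after scaling in each group.

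The next densities were those of 3 more Hist2 genes. Hist2h2ab, coding for H2A, had 1.30 RPKM in FC and 1.44 in CON, with log2 ratios over input of 1.40 and 1.12. Hist2h2aa1 (H2A) and Hist2h3c1 (H3) start 16 bp apart and share nearly all of their promoter reads, with 77 H4K5ac reads each in FC and 100 and 97 in CON. Hist2h2aa1 had the highest mean ratio of the H2A class, with 1.21 in FC and 1.5 in CON, and Hist2h3c1 had 1.21 and 1.45. Hist2h3b led the H3 class with 1.19 (0.66 to 1.73) and 1.48 (0.85 to 2.14). The remaining Hist2 genes were Hist2h2aa2 with log2 ratios of 1.41 in FC and 1.27 in CON, Hist2h2be with 1.13 and 1.29, Hist2h2ac with 0.89 and 1.59, and Hist2h2bb with 1.19 and 0.98. The pseudogene Hist2h3c2, with 37.8% unique starts in its promoter, had 1.46 and 0.94 from 29 and 50 reads.

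In the Hist3 cluster, Hist3h2ba led the H2B class with log2 ratios of 1.37 (0.82 to 1.95) in FC and 1.72 (1.04 to 2.44) in CON. The pseudogene Hist3h2bb-ps had 1.13 and 1.02. Hist3h2a had 0.30 (-0.29 to 0.89) and 0.70 (0.03 to 1.39), and it was the single member outside chromosome 13 that stayed below 1.5-fold in a group. It is annotated with the same start as Trim17, a ubiquitin ligase gene.

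The Hist1 cluster falls into blocks where neighbours lie over 100 kb apart. Block A (chr13:21807632-21929399, 19 members) had a pooled promoter log2 ratio of 0.66 (0.46 to 0.86) in FC and 0.71 (0.50 to 0.92) in CON. Block B (chr13:22126982-22135545, 5 members) had 0.23 (-0.16 to 0.62) and 0.62 (0.22 to 1.04). Block C (chr13:23622919-23856283, 29 members) had 0.89 (0.75 to 1.02) and 0.81 (0.67 to 0.94). The intervals of A, B and C overlapped in CON, and those of B and C did not in FC.

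Block D (chr13:24025637-24026720) holds Hist1h2ba and Hist1h2aa, the H2B and H2A genes known for their expression in testis. The Hist1h2aa promoter held 15 H4K5ac, 11 IgG and 53 input reads in FC and 19, 12 and 39 in CON. Its log2 ratio over input was -1.29 (-2.22 to -0.44) for FC and -1.06 (-1.93 to -0.23) for CON, the only member at least 1.5-fold below input in both groups, against 17% of all genes. Hist1h2ba had 27 H4K5ac, 8 IgG and 37 input reads in FC and 18, 13 and 28 in CON, with log2 ratios of 0.08 (-0.70 to 0.83) and -0.66 (-1.60 to 0.25). The gene bodies of the pair together held 3 H4K5ac and 20 input reads in FC and 2 and 15 in CON. Against IgG the pooled promoters of the pair had log2 ratios of 0.03 (-0.80 to 0.92) and -0.67 (-1.47 to 0.16). Hist1h1t, the linker histone gene known from testis, lies in block C among other histone genes and had the lowest mean ratio of the H1 class, 0.36 (-0.23 to 0.95) in FC and 0.48 (-0.12 to 1.10) in CON. Hist1h2al lies apart from the cluster at chr13:51298057-51298434 and had 0.11 (-0.51 to 0.72) and 0.20 (-0.47 to 0.87).

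By class, pooled promoter log2 ratios ran from 0.66 (H2A) to 1.18 (H1) in FC and from 0.85 (H2A) to 0.97 (H3) in CON. The H4 class had 1.01 (0.82 to 1.2) and 0.94 (0.75 to 1.14). The intervals of all 5 classes overlapped in CON. In FC those of H2A (0.51 to 0.81) stayed below those of H1 (0.91 to 1.45) and H4, and they overlapped those of H2B and H3. Over IgG this order was not kept in FC, where H2A had 1.09 (0.84 to 1.34), H1 0.94 (0.56 to 1.34) and H4 1.16 (0.86 to 1.47).

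Of the 13 H4 genes 11 could be measured. In FC 10 of them were at least 1.5-fold above input and in CON 6 were, with 5 in both, against 34.1%, 43.2% and 28.1% of all genes. Besides Hist4h4 and Hist2h4, Hist1h4i had log2 ratios of 1.24 in FC and 1.30 in CON, Hist1h4f had 0.84 and 1.14, and Hist1h4d had 0.61 and 0.69. Another 5 were higher in FC alone by this rule: Hist1h4b with 1.5 and 0.45, Hist1h4c with 1.42 and 0.40, Hist1h4k with 1.08 and 0.43, Hist1h4h with 0.63 and 0.34, and Hist1h4a, with the lowest mean of the class, with 0.64 and 0.10. The intervals in FC and CON overlapped for each of these genes. Hist1h4j was the reverse, with 0.12 (-0.39 to 0.63) in FC and 0.95 (0.23 to 1.71) in CON. Its promoter held 58 H4K5ac reads in FC and 49 in CON, beside 77 and 25 input reads, so the difference in its ratio lay in input. In 3 of the 5 genes higher in FC alone, input was lower in FC with an interval below 0: Hist1h4b with an FC over CON log2 ratio of -1.06 (-1.92 to -0.23), Hist1h4k with -0.81 (-1.54 to -0.10) and Hist1h4c with -0.78 (-1.56 to -0.02). In Hist1h4h it was -0.36 (-1.17 to 0.45) and in Hist1h4a -0.19 (-1.05 to 0.69). That of H4K5ac in the 5 genes was between -0.16 (Hist1h4k) and 0.35 (Hist1h4a), with intervals that included 0.

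Among the linker histone genes, Hist1h1c had the highest mean ratio, with 63 H4K5ac and 28 input reads in FC and 93 and 33 in CON, and log2 ratios of 1.70 (1.04 to 2.40) and 1.48 (0.89 to 2.10). Hist1h1e had the highest ratio of any member in FC, 2.14 (1.35 to 3.00), from 55 H4K5ac reads over 18 input reads, and 0.91 (0.26 to 1.59) in CON. IgG was above input there too, with a log2 ratio of 1.29 (0.17 to 2.38) in FC, and H4K5ac over IgG was 0.85 (-0.01 to 1.82) for FC and 0.51 (-0.26 to 1.34) for CON. At the other end were Hist1h2bk, lowest in the H2B class, with -0.74 (-1.65 to 0.11) and -0.17 (-1.17 to 0.82), and Hist1h3g, lowest in the H3 class, with 0.17 (-0.60 to 0.92) and 0.20 (-0.63 to 1.03).

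Pooled over their spans, blocks A and C had more H4K5ac than input, beside flanks that had less, and single bins inside block C without histone genes, such as those centred at 127.5 to 137.5 kb, had less in both groups. In FC and CON the log2 ratio over the span was 0.38 (0.27 to 0.49) and 0.20 (0.09 to 0.30) in block A and 0.38 (0.31 to 0.44) and 0.36 (0.30 to 0.43) in block C. Flanks of the same length as block A had -0.86 and -1.14 on its left and -0.55 and -0.53 on its right. Those of block C had -0.27 and -0.28 on the left and -0.70 and -0.59 on the right, where the flank contains block D. Block B had 0.57 (0.19 to 0.95) and 0.87 (0.49 to 1.26), and the intervals of its flanks, from -0.27 to 0.26, all included 0. The 1487 kb between blocks B and C had -1.03 (-1.07 to -0.99) in FC and -1.23 (-1.27 to -1.19) in CON. Of the 38 protein-coding genes there 33 are named as vomeronasal receptors of the V1r family, which are known from the vomeronasal organ. Against IgG the block A span had 0.12 (-0.02 to 0.27) in FC and 0.09 (-0.04 to 0.22) in CON. These values rested on 1 bin of 5 kb without a histone gene, which held 146 of 559 IgG reads in FC and 149 of 662 in CON, and 178 of 1323 CON input reads. Without it, a choice made after seeing the data, the span had 0.43 (0.26 to 0.59) and 0.33 (0.19 to 0.48) over IgG and 0.37 and 0.27 over input. The flanks of block A lay below 0 over IgG, from -1.30 to -0.46. Over IgG the block B span had 0.36 (-0.15 to 0.90) in FC and 0.67 (0.19 to 1.17) in CON. Its left flank had 0.10 and 0.12, and its right flank 0.70 (0.16 to 1.28) and 0.38 (-0.05 to 0.83). In FC the right flank of block B thus lay above its span.

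In blocks A and C and the Hist2 cluster the ratio was higher in the genes and promoters than in the rest of the span. In block C these had 0.69 (0.59 to 0.78) in FC and 0.58 (0.49 to 0.68) in CON, and the rest of the span 0.10 (0.004 to 0.19) and 0.15 (0.06 to 0.24). In block A they had 0.64 in both groups, and the rest of the span 0.26 and 0.04. In Hist2 they had 0.84 (0.67 to 1.01) and 1.19 (1.00 to 1.38), and the rest 0.34 (0.18 to 0.49) and 0.61 (0.45 to 0.78). Block B in FC and the Hist3 cluster did not share this order: in block B genes and promoters had 0.48 in FC and 1.12 in CON against 0.68 and 0.45 in the rest, with overlapping intervals, and in Hist3 0.67 and 0.94 against 1.15 and 1.09. Hfe, the haemochromatosis gene inside block C, had promoter log2 ratios of 1.16 in FC and 0.67 in CON.

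The Hist2 span (chr3:96023839-96082924) did not stand out from its left flank. It had 0.56 (0.44 to 0.67) in FC and 0.87 (0.75 to 0.99) in CON, and the left flank 0.52 (0.41 to 0.63) and 1.00 (0.88 to 1.13), while the right flank had -0.54 and -0.41. The Hist3 span (chr11:58762413-58770176) had 0.89 (0.60 to 1.18) and 1.01 (0.68 to 1.35), with flanks between 0.37 and 1.05.

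**Figure D3:**
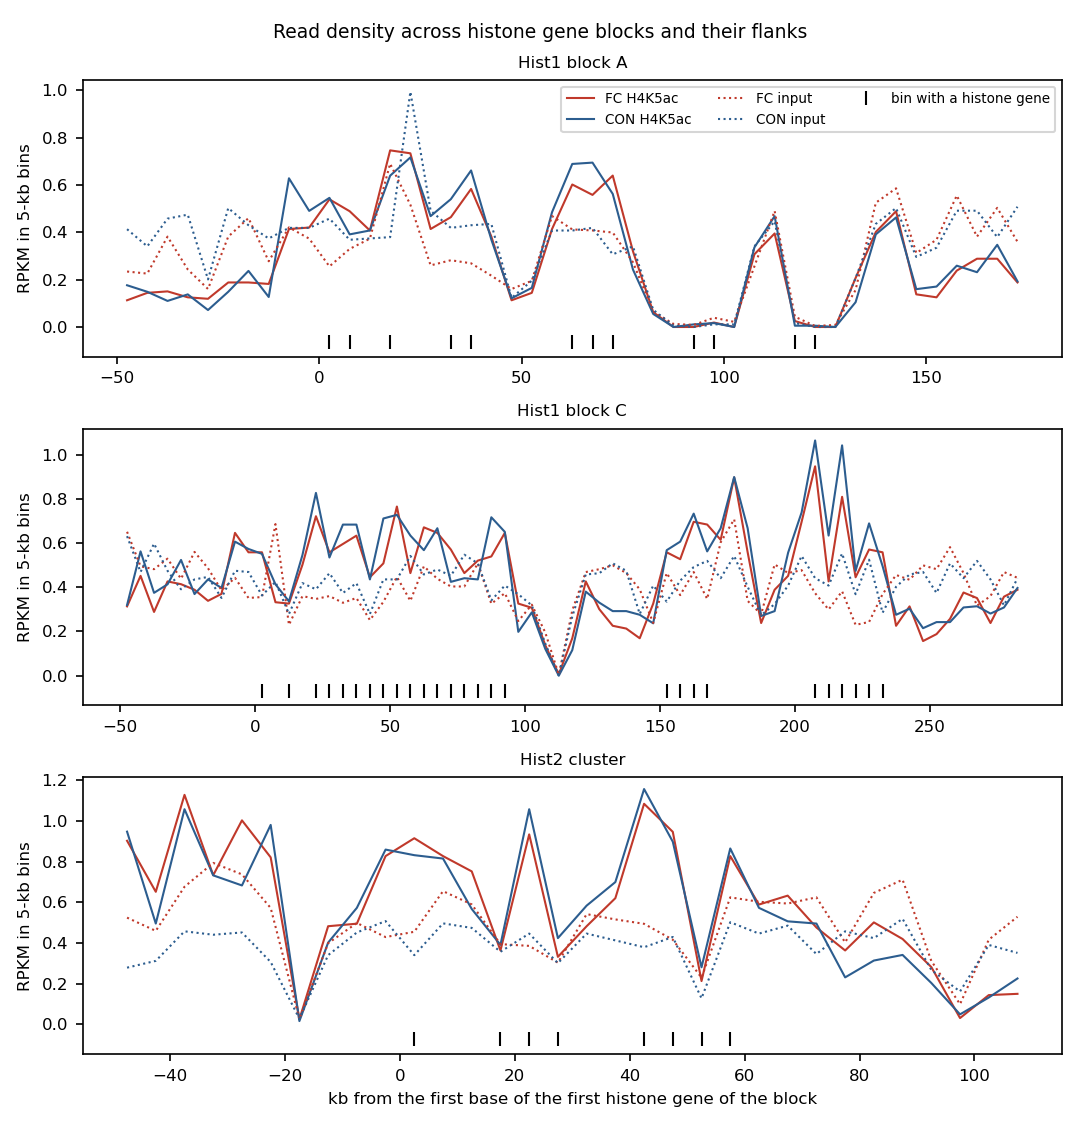
RPKM (reads per kb, scaled to the library total) in 5-kb bins across Hist1 blocks A and C and the Hist2 cluster with flanks on each side, H4K5ac as solid and input as dotted lines, FC in red and CON in blue. H4K5ac lies above input over most bins with histone genes (ticks) and below it in both groups from 12.5 to 47.5 kb left of block A, and all 4 lines drop to near 0 in the bins centred at 87.5 to 102.5 kb and 117.5 to 127.5 kb in block A, where at most 6.2% of starts were unique.

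Around the TSS of the 64 members, H4K5ac coverage was highest 850 bp upstream in FC and 1050 bp upstream in CON, where 91.7% and 88.9% of starts were unique. By the ratio to input the summit was again at 850 bp in FC but at 450 bp upstream in CON, where 70.8% were unique. Coverage was lowest 250 bp (FC) and 150 bp (CON) downstream, inside the gene, where 31.7% and 45.7% of starts were unique. The log2 ratio of H4K5ac over input was 0.97 (0.81 to 1.13) for FC and 0.90 (0.73 to 1.06) for CON from 1000 to 500 bp upstream. It was 0.68 (0.51 to 0.86) and 0.83 (0.64 to 1.01) in the last 500 bp before the TSS, and 0.47 (0.28 to 0.67) and 0.66 (0.42 to 0.90) in the first 500 bp of the gene. In FC the intervals of the first and last of these windows did not overlap. In CON they overlapped. From 500 to 1000 bp downstream the ratio was 0.78 (0.62 to 0.94) and 0.67 (0.51 to 0.84). Of these windows, the first 500 bp of the gene had the lowest value in FC. In 100-bp bins the lowest FC ratios were 0.08 at 1050 bp downstream and 0.09 at 50 bp upstream. The lowest in CON was 0.19 at 250 bp upstream. Over IgG the low value of the first 500 bp was absent in FC. It was 1.05 (0.73 to 1.38) there and 1.06 (0.81 to 1.30) from 1000 to 500 bp upstream. From 2000 to 1000 bp upstream the ratio over input was 0.89 (0.78 to 1.01) for FC and 0.93 (0.81 to 1.05) for CON. These intervals overlapped those from 1000 to 500 bp upstream, so the windows did not resolve where the summits lie.

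**Figure D4:**
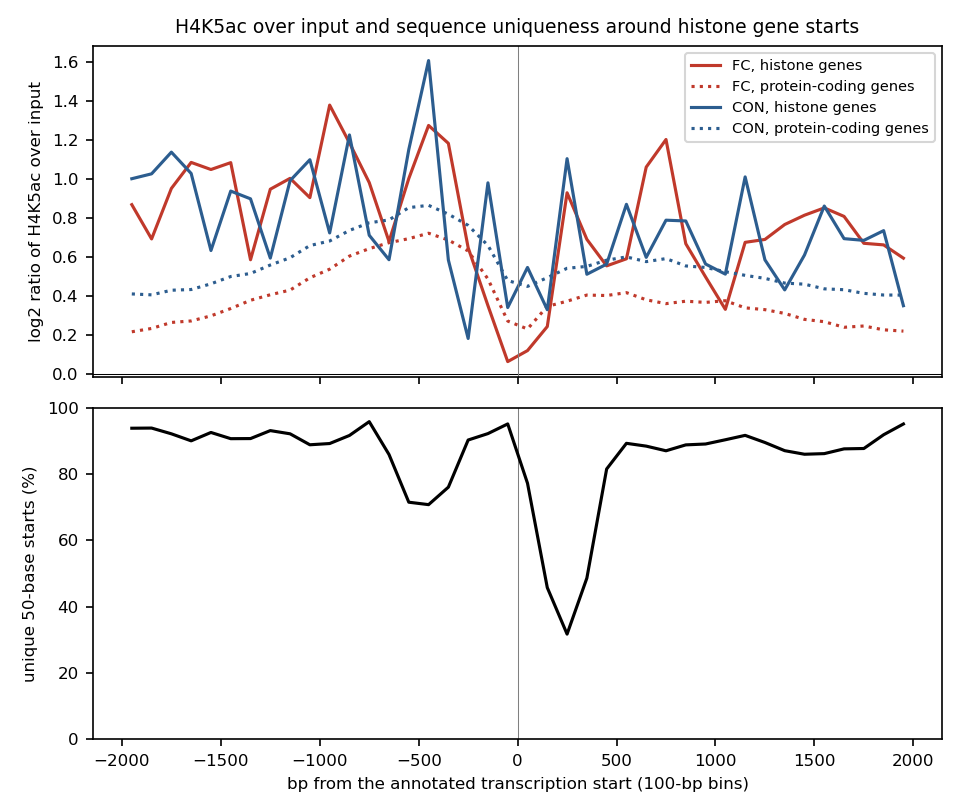
Top, log2 ratio of H4K5ac over input with 1 read kept per position and strand, in 100-bp bins around the annotated start, for the 64 measured histone genes (solid) and 22300 other protein-coding genes (dotted), FC in red and CON in blue. Bottom, percentage of unique 50-base starts at the same positions in histone genes, which drops to 31.7% at 250 bp.

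In gene bodies the pooled log2 ratio over input was 0.50 (0.40 to 0.59) for FC and 0.54 (0.44 to 0.65) for CON. The medians of protein-coding bodies were 0.18 and 0.46, and with these set to 0 the pooled values were 0.31 and 0.086. At least 1.5-fold above input were 22 of 45 bodies (48.9%) in FC, against 22% of all genes, and 17 of 30 (56.7%) in CON, against 39%. The members' bodies were much shorter, with a median of 530.5 bp against 15427 bp in protein-coding genes. In the first 500 bp of genes with 10 reads, the members' median log2 ratio was 0.47 in FC and 0.61 in CON. The protein-coding medians there were 0.42 and 0.72, so in this window the members did not stand out. At least 1.5-fold below input were 5 bodies in FC and 3 in CON, against 26% and 21.8% of all genes, and Hist1h2aa was the one below in both. Hist1h2be is annotated over 37383 bp and held 682 of the 1735 FC H4K5ac reads, so it weighs most in the pooled value. Without the 5 longest bodies, an alternative chosen after seeing the data, the CON ratio was 0.77.

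Many H2A and H2B genes are arranged head to head. There were 13 such pairs, all of an H2A and an H2B gene, with 167 to 305 bp between their starts (median 215). Between the starts of these pairs lay 48 H4K5ac and 65 input reads in FC and 64 and 37 in CON, with log2 ratios of 0.09 (-0.48 to 0.65) and 0.77 (0.17 to 1.40). The FC and CON intervals overlapped. With this packing, 50 of 70 promoters overlapped an annotated gene, and neighbouring members share reads.

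Short motifs in the promoters differed in frequency between the classes. They were searched on both strands in the 250 bp before the TSS. The CCAAT box was present in 58 of 70 members, in all 6 H1 and all 19 H2B genes, in 19 of 20 H2A, 10 of 12 H3 and 4 of 13 H4 genes, and in 34.8% of 22300 other protein-coding promoters. TATAAA was present in 33 members and 12.2% of the others. The octamer ATTTGCAT, which POU2F1 is known to bind in H2B promoters, was present in 9 H2B and 7 H2A genes, in none of the H1, H3 and H4 genes and in 1.56% of the others. The 16 members share 10 sites, since 6 sites lie between an H2A and an H2B gene and were counted for both. TTTCGCGC, an E2F site, was present in 7 members and in 0.238% of the others. Some of these members share a site, as Hist1h2ag does with Hist1h2bj and Hist1h2an with Hist1h2bp. CCAAT and TATAAA sites between head-to-head genes were likewise counted for both genes. None of these motifs contains another. Windows of 30 bases around the motif (capitals) are shown for the H2A gene Hist2h2aa1, whose promoter was among the 5 with the highest H4K5ac density, for Hist1h2ba, where the ratio was among the lowest, and for the H2B gene Hist2h2be.
Hist2h2aa1, CCAAT: gacgcgtgtgagCCAATgagagcgtcgggc
Hist2h2aa1, TATAAA: cgggtctgcgtcTATAAAagagtgaggcgt
Hist2h2be, octamer: tttgagacctaATTTGCATaaggcgttcat
Hist1h2ba, octamer: gaattccccttATTTGCATgcacccagcac
They lie at chr3:96049382-96049411, chr3:96049419-96049448 and chr3:96024985-96025014 on the plus strand and at chr13:24026171-24026200 on the minus strand. The 16 members with the octamer had medians of 0.90 (FC) and 0.94 (CON) for the log2 ratio over input. The 48 measured members without it had 0.92 and 0.85.

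Little separated FC from CON after scaling to the library totals. This scaling removes any change shared by the whole genome, so the ratios cannot show one. By Western blot, the paper reports more H4K5ac in the hippocampus after the third-day test than in controls taken on the first day. The pooled log2 ratio of FC over CON H4K5ac was -0.07 (-0.15 to 0.007) at promoters and 0.03 (-0.07 to 0.12) in gene bodies. At promoters the input libraries differed by -0.04 (-0.13 to 0.06) and the IgG libraries by -0.13 (-0.30 to 0.04). The members' median was -0.06, and that of protein-coding promoters 0.09. At least 1.5-fold higher in FC was 1 of 64 promoters (1.56%), against 12.2% of all genes, and 5 (7.81%) were lower, against 8.68%.

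The gene higher in FC was Hist1h2ba, with 27 reads in FC and 18 in CON and a log2 ratio of 0.77 (-0.14 to 1.72). The next were Hist2h2be with 0.51 (-0.04 to 1.06) and Hist1h2an with 0.43 (-0.23 to 1.09), where every interval included 0. The largest differences in the other direction were those of Hist1h2ab with -0.79 (-1.30 to -0.29), from 52 reads in FC and 102 in CON, Hist1h1d with -0.70 (-1.25 to -0.17) and Hist1h3i with -0.68 (-1.34 to -0.04). For Hist1h2ab the input reads were 34 and 47, a log2 ratio of -0.83, and its ratio of H4K5ac over input was alike in FC (1.14) and CON (1.10). For Hist1h1d these were 30 and 37 input reads, and the ratios over input were 1.15 and 1.18. Hist1h3i was different, since its input was higher in FC, with 51 reads against 32 and a log2 ratio of 0.31, and its H4K5ac over input was -0.10 (-0.77 to 0.56) for FC and 0.89 (0.25 to 1.55) for CON. The input of FC and CON differed with base composition: the median FC over CON input log2 ratio of protein-coding promoters was -0.46 at 35 to 40% GC and 0.66 at 55 to 60%. For H4K5ac the same medians were -0.006 and 0.23. Hist1h2ab had the lowest promoter GC content of all members, 37.2%. With GC matching to protein-coding promoters, the pooled FC over CON H4K5ac ratio of the histone promoters was -0.13. The part of base composition in the differences of single genes was not tested. Among the members, input was at least 1.5-fold higher in FC in 7 of 64 promoters and lower in 14, against 26.3% and 13.1% of all genes.

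In gene bodies 10 of 36 members (27.8%) were at least 1.5-fold higher in FC, against 7.58% of all genes, and 3 (8.33%) were lower, against 4.01%. All 10 had fewer than 20 reads in the pair, since none was left with a minimum of 20. In the first 500 bp of the genes pooled, FC over CON was 0.36 (0.16 to 0.56) for H4K5ac, and 0.55 (0.32 to 0.78) for input, which moved the same way.

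**Figure D5:**
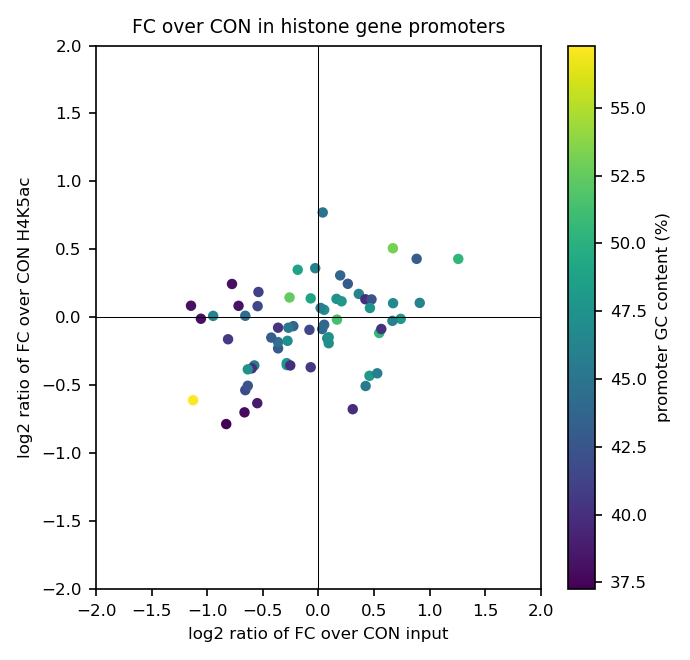
Log2 ratio of FC over CON H4K5ac against that of input in the 64 measured histone promoters, coloured by promoter GC content. H4K5ac ratios run from -0.79 to 0.77 and input ratios from -1.15 to 1.26.

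Genes that act with the histone genes were read in the same way. The 11 replication-independent variant genes had median promoter log2 ratios over input of 0.90 in FC and 1.27 in CON, with 8 at least 1.5-fold higher in each group, against 34.1% (FC) and 43.2% (CON) of all genes. H3f3b, coding for H3.3, had 1.65 (1.00 to 2.32) and 1.27 (0.71 to 1.84), and H1f0, a linker histone of resting cells, had 1.30 and 1.88. These were the highest of the list in FC and in CON, and the lowest were H2afx with -0.75 (-1.69 to 0.12) in FC and H2afv with -0.37 (-1.07 to 0.33) in CON. Of 14 genes for transcription and 3′ end processing of histone mRNA, 9 in FC and 11 in CON were higher, against the same 34.1% and 43.2% of all genes, with medians of 0.74 and 0.76. Among them Npat had 0.47 (-0.16 to 1.10) and 1.01 (0.26 to 1.80), and Slbp, the stem-loop binding protein gene, 0.63 (0.08 to 1.18) and 1.03 (0.37 to 1.72). Of 18 genes of S phase and cell division, 11 in each group were higher, beside the same shares of 34.1% and 43.2%, with medians of 0.66 and 1.00. Of protein-coding promoters, 41.8% (FC) and 52.5% (CON) were higher by this rule. The histone members' median in FC, 0.91, was close to that of the variant genes, 0.90, and above those of the other lists. Their median in CON, 0.90, lay between the medians of the 3 lists. In gene bodies the medians (FC, CON) were 0.60 and 0.69 for the variant genes. They were 0.27 and 0.34 for the transcription and processing genes, and -0.26 and -0.05 for the S phase genes.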

How the data were processed

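Sequencing was by SOLiD with reads of 50 bp. Alignment to mm9 used Bioscope, and each line of the deposited files is 1 aligned read. The score that the authors deposited with each read is its mapping quality, from 4 to 100, and reads of every score were counted. Of the reads in a library 11.5% to 17.8% repeated a position and strand. Reads overlapping a window by at least 1 bp were counted for all 37273 genes with Python 3.11.15, numpy 2.4.6 and scipy 1.17.1, and figures were drawn with matplotlib 3.10.9. RPKM is reads per kb, scaled to the library total. The window length was extended by the mean read span of the library, less 1 bp. Ratios have exact binomial (Clopper-Pearson) intervals, which cover counting error only. A call needed 1.5-fold and 10 reads in the pair. Groups came from the labels. Sequences came from the NCBIM37 genome.

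The members and gene lists were chosen with earlier results of these data known. Named with values were all H4 genes, all members outside the Hist1 cluster, the highest and lowest mean promoter ratio in each class, the 5 highest and lowest promoter RPKM, and the 3 largest FC over CON differences in each direction with at least 20 reads. Others, such as Hist1h1e, the genes named from the lists and the members named beside a count or an alternative, were chosen after their values were seen. The ratio and its interval were tested on simulated data. Alternatives were other promoter lengths, 1 read per position, a score of at least 50, read midpoints, IgG as control, other scalings, GC matching, and other folds and read minimums.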

Additional observations from a re-analysis of the deposited data

Results flagged for a closer look

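Hist2h3c2, the H3 pseudogene of the Hist2 cluster, was the only member whose gene body passed 1.5-fold in opposite directions in the 2 groups. Its log2 ratio of H4K5ac over input was 1.12 (-0.96 to 3.38) in FC, from 6 and 4 reads, and -1.43 (-3.98 to 0.62) in CON, from 3 and 8 reads. Both intervals included 0, the difference was not tested, and 37.2% of its starts were unique. Of all genes 0.989% passed the fold in opposite directions.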

How the results depend on the processing

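With 1 library per group and antibody, values could not be checked against replicates, and counting error was the only error known. No paired analysis was possible because each group has 1 library of each kind. Of the values under alternatives, 80 stayed close to the reported one, 34 moved and 3 changed sign. Promoter ratios over input (FC, CON) were 0.66 and 0.64 with 5-kb promoters, 0.44 and 0.22 with the protein-coding median set to 0, and 0.51 and 0.49 with GC matching. With IgG as control FC was 1.00. Body ratios were 0.31 and 0.086 with that median set to 0 and 0.73 and 0.66 over IgG. In CON they were 0.66 in the first 500 bp and 0.77 without the 5 longest bodies, both chosen after seeing the data, as were 3 promoter settings that moved nothing (windows before the start codon, promoters at least 80% unique, and leaving out Hist1h4j). Over IgG, spans in FC were 0.12 (block A), 0.48 (block C), 1.2 (Hist2) and 1.77 (Hist3), and Hist2 in CON was 1.12. Without the 5-kb bin of block A with the most IgG reads, a setting also chosen after seeing the data, block A in CON was 0.33 over IgG. The CON summit by ratio to input was at -450 bp. Counts at other folds or read minimums, here and below, come without the share of all genes and cannot be set against it. At 2-fold, promoters higher than input numbered 29 and 24, and bodies 11 in each group. With 20 reads 13 FC bodies were higher, and with no minimum 30 CON bodies. FC over CON at promoters was -0.16 with the protein-coding median set to 0 and 0.055 less the IgG ratio. In bodies it was -0.011 with that median set to 0 and -0.045 less the input ratio. At 2-fold 0 promoters were higher or lower in FC. Bodies higher in FC numbered 6 at 2-fold, 0 with 20 reads and 25 with no minimum, and bodies lower numbered 1 at 2-fold and 11 with no minimum. The causes were not tested.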
